A study of Oncorhynchus mykiss with 24 samples.

Results

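The samples compared were rainbow trout (Oncorhynchus mykiss) embryos of 19 and 15 days post-fertilization (dpf), taken as every array labelled with either age. They made up 16 of the 24 arrays and 32 of the 48 embryos of the series, with 16 embryos on 8 arrays at 19 dpf and 16 embryos on 8 arrays at 15 dpf. At each age 4 embryos represented each combination of sex (female or male, typed with the Y-linked marker OmyY1) and genotype at a quantitative trait locus for development rate (OSU/CW or OSU/OSU). OSU and CW (Clearwater) are clonal trout lines, and the embryos came from a family made by repeated backcrossing of their hybrid to OSU. At 19 dpf the embryos were at the caudal flexing stage, and at 15 dpf they were eyed. RNA of a whole embryo was labelled with Cy3 or Cy5 and hybridized to a cDNA array of 16028 salmonid expressed sequence tags (ESTs, single reads of cDNA clones named by their best protein match). The embryos sharing an array had the same age and sex and different genotypes, so age differed only between arrays. In whole embryos, fewer cells of a type and less RNA per cell cannot be told apart.

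Between the eyed stage and hatching, the body of a trout embryo turns from a patterned embryo into a hatching larva. Myotomes fill with fast fibres, which shorten through myosin and actin, are switched by calcium through the troponins and tropomyosin, take calcium back up with the sarcoplasmic pump SERCA1 and parvalbumin, and buffer ATP with creatine kinase. Over the same period the lens packs its fibre cells with crystallins, the skin lays down keratins and collagen, and the liver starts to secrete plasma proteins.

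Log2 intensities were background-corrected and normalized, and the mean of the sex and genotype groups of 19 dpf was set against that of 15 dpf in limma. Of 11653 ESTs tested, 274 (2.35%) were higher and 33 (0.283%) were lower at 19 dpf at a false discovery rate (FDR) of 0.05, and the median difference over all ESTs was 0.00. Of these, 153 (1.31%) were higher and 11 (0.0944%) were lower by at least 2-fold. Among the 274, the median difference was 1.04 on the log2 scale and the highest 2.43. In 18 ESTs (0.154%) every 19 dpf embryo lay above every 15 dpf embryo, all of them among the 274, and in 0 ESTs every 19 dpf embryo lay below every 15 dpf embryo. All 274 and all 33 had the same direction in females, males, OSU/CW and OSU/OSU embryos. The calls rest on the mean over these same groups, so a shared direction was likely in advance and is not separate support. Of the 274, 22 had no description and 187 were on a list, against 2982 and 2702 of all 11653 tested ESTs. ESTs with one description are not independent, since clones of a gene, and the duplicated genes of salmonids, can bind the same RNA. Positive differences below mean a higher level at 19 dpf, adjusted p values are limma's after the Benjamini-Hochberg procedure over all 11653 ESTs, and errors of differences are standard errors.

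**Figure D1:**
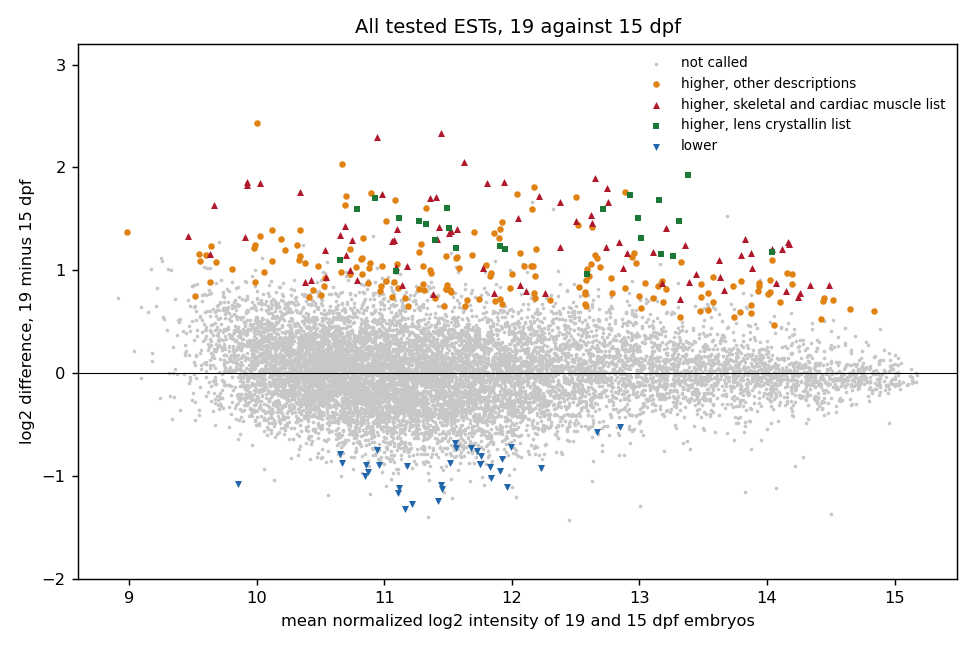
Log2 difference (19 minus 15 dpf) of each of the 11653 tested ESTs against its mean normalized log2 intensity over the embryos of both ages. Coloured points are the 274 ESTs called higher, with those of the muscle and lens lists as triangles and squares, and the 33 called lower, which lie mostly at middle levels.

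Array quality differed between the ages. The median signal over local background of a channel ran between 1.20 and 3.07 at 19 dpf, with a median of 1.73, and between 1.18 and 1.83 at 15 dpf, with a median of 1.52. At 28 dpf, whose levels are given below for some ESTs, it ran between 1.75 and 4.83, with a median of 2.45. Quality thus rose with age over all 3 ages, and levels of 28 dpf were not tested against the others. Median normalized log2 intensities of the negative control spots were between 7.75 and 8.90 at 19 dpf and between 8.15 and 9.04 at 15 dpf. With the signal over background of each channel as a covariate, 219 ESTs were higher and 13 lower, and 206 of the 219 were among the 274. Because age and quality both varied between arrays, their shares in a difference cannot be told apart, and the number of arrays limits the precision. One 15 dpf array, male array 41, stood apart in several ESTs and had the lowest mean level of the lens list (10.23, against 10.73 to 11.48 on the other 15 dpf arrays). Without it 196 ESTs were higher, all of them among the 274, and 10 were lower.

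**Figure D2:**
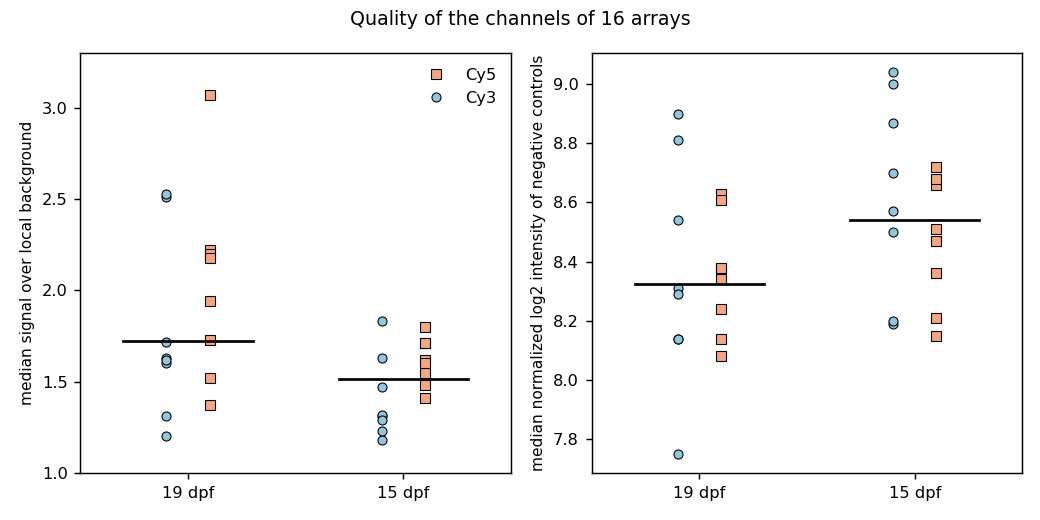
Median signal over local background (left) and median normalized log2 intensity of the negative control spots (right) of each Cy5 and Cy3 channel of the 16 arrays, with the median of each age as a bar. Signal over background reaches 3.07 at 19 dpf and no more than 1.83 at 15 dpf, and the ranges of the controls overlap.

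Muscle ESTs were the most numerous among those that rose. Of 180 tested ESTs on the skeletal and cardiac muscle list, 81 (45.0%) were higher and 0 lower at 19 dpf, and the median difference was 0.65, against 2.35% higher and a median of 0.00 over all ESTs. Averaged over the list, levels of the 16 embryos ran between 11.61 and 12.60 at 19 dpf and between 11.26 and 11.71 at 15 dpf. Array means did not overlap, with 11.79 to 12.35 at 19 dpf and 11.38 to 11.68 at 15 dpf. Under loess normalization within arrays alone the count was 51. The list's median was 0.78 in females, 0.64 in males, 0.83 in OSU/CW and 0.57 in OSU/OSU embryos.

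The parvalbumins, small cytosolic proteins that bind calcium and speed relaxation of fast fibres, were higher in 16 of 22 ESTs, with a median difference of 1.32. Parvalbumin beta 1 (CB494458) had levels between 11.53 and 13.37 with a median of 12.66 at 19 dpf (n = 14), against levels between 9.17 and 11.48 with a median of 10.66 at 15 dpf (n = 16). Every 19 dpf embryo lay above every 15 dpf embryo, and the difference of 2.05 ± 0.20 was 4.14-fold (adjusted p = 9.83e-09). At 15, 19 and 28 dpf its medians were 10.66, 12.66 and 15.00. All 5 ESTs of parvalbumin beta 1 rose, by 1.71 to 2.30, and 7 of 8 ESTs of parvalbumin beta 2 rose, by 0.89 to 1.86. Several parvalbumin spots were above the 90th percentile of the negative controls in 0 of 16 channels of 15 dpf and so have only a bound there. For these, the 19 dpf mean was set against a 15 dpf mean in which each channel took the higher of its own level and that percentile of its controls. On that reckoning parvalbumin beta 1 (CB510281) was 3.54-fold higher at 19 dpf. The other ESTs of parvalbumin beta 1 and 2 so bounded (CA770081, CB510402, CB510271 and CB509702) were 1.82, 2.14, 1.67 and 1.30-fold higher. At 19 dpf these ESTs, in the same order, passed the controls in 12, 9, 9, 8 and 8 of 16 channels. Values of 19 dpf below the percentile entered as measured, so the folds are not strict lower limits. In the alternative fits the log2 differences of CB510281, CA770081 and CB510271 were 1.23 to 3.08, 0.67 to 2.76 and 0.57 to 2.76. For parvalbumin-2 (CB510226), which is among the 16, the 19 dpf mean equalled the bound of 15 dpf (10.1 each), so that the bound shows no difference.

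SERCA1, the pump that returns calcium to the sarcoplasmic reticulum of fast fibres, was higher in 12 of 12 ESTs by 0.86 to 2.33. One EST with values on all arrays (CB492749) ran between 11.42 and 13.63 with a median of 12.63 at 19 dpf, and between 9.57 and 11.89 with a median of 10.99 at 15 dpf. The ranges overlapped at their edges and the difference was 1.85 ± 0.25 (adjusted p = 4.41e-06). Both ESTs of SERCA2, the form of slow fibres and heart, missed the threshold, with differences of 0.46 ± 0.18 and 0.55 ± 0.37 (adjusted p = 0.194 and 0.503). Calsequestrin-1, which stores calcium in the reticulum, was higher in 2 of 4 ESTs by 0.86 and 1.30.

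**Figure D3:**
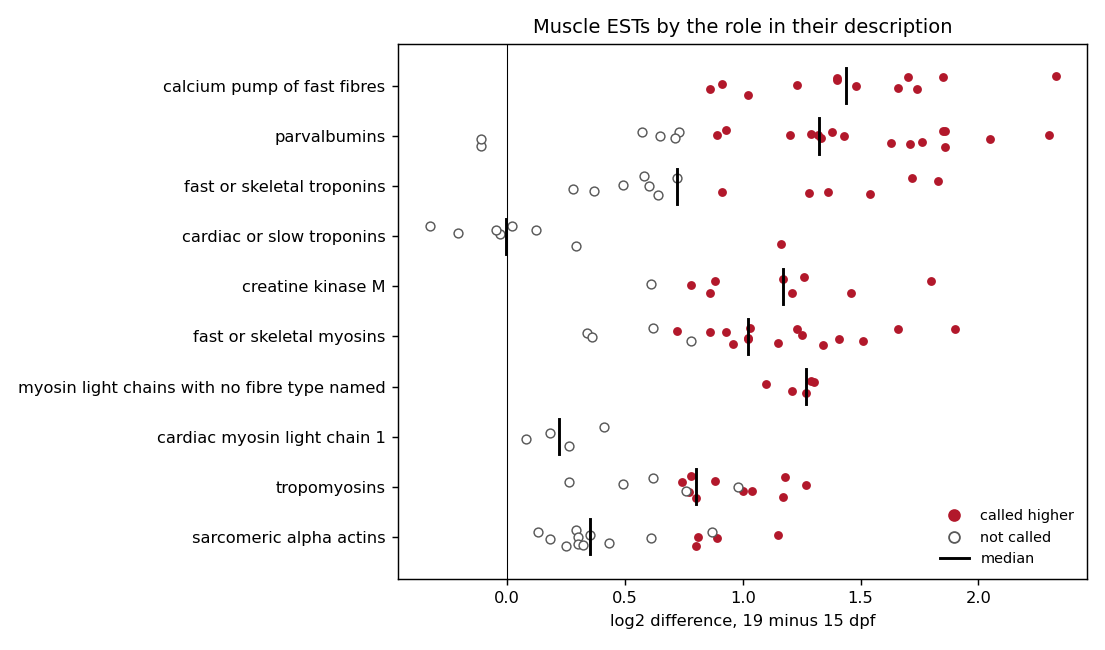
Log2 difference (19 minus 15 dpf) of muscle ESTs grouped by the protein named in their description, with the median of each group as a bar. All 12 ESTs of the fast calcium pump are filled, as called higher, while 1 of 8 cardiac or slow troponin ESTs and 0 of 4 cardiac myosin light chain 1 ESTs are.

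Contractile proteins were also among those that rose. Myosins described as fast or skeletal were higher in 15 of 19 ESTs (median 1.02). Myosin light chain 3 of skeletal muscle (CB493766) had levels between 12.97 and 13.96 with a median of 13.64 at 19 dpf (n = 12), against 10.81 to 12.94 with a median of 11.74 at 15 dpf (n = 14). Its ranges did not overlap, and the difference was 1.90 ± 0.22 (adjusted p = 3.88e-07). Fast or skeletal troponins, the calcium switch of the thin filament, were higher in 6 of 13 ESTs (median 0.72). The largest differences were those of troponin I (CB509543, 1.83 ± 0.29) and troponin T (CB498116, 1.72 ± 0.20). That troponin I EST passed the negative controls in 7 of 16 channels of 19 dpf and 1 of 16 of 15 dpf. Its difference was 0.41 to 2.01 in the alternative fits. Of 8 ESTs of fast troponin I, 2 were called, and the median of the 8 was 0.62. An EST described as fast myotomal troponin-I of Atlantic salmon (CB498120), counted apart, had a difference of -0.49 ± 0.37 (adjusted p = 0.564). Skeletal troponin C (CB496985), the calcium-binding subunit, ran between 12.59 and 13.85 at 19 dpf with a median of 13.44, and between 10.86 and 12.70 at 15 dpf with a median of 11.77. Only the edges of these ranges met, and the difference was 1.54 ± 0.17, or 2.91-fold (adjusted p = 3.89e-08). Tropomyosins, which cover the thin filament, were higher in 10 of 15 ESTs (median 0.80). Alpha actins, the thin filament itself, were higher in 4 of 15 ESTs (median 0.35), and none of the 3 described as skeletal was called (0.18 to 0.30).

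The heart and slow fibres use their own forms of these proteins. Of 8 cardiac or slow troponin ESTs 1 was called, troponin C of slow and cardiac muscle at 1.16, and the median was -0.01. Cardiac myosin light chain 1 had 0 of 4 called and differences between 0.08 and 0.41. Alpha actins described as cardiac or sarcomeric/cardiac held all 4 of the actin calls, with 4 of 12 higher by 0.80 to 1.15. The difference between fast or skeletal and cardiac or slow ESTs was not itself tested, and the ESTs can bind RNA of related forms.

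Creatine kinases, which keep ATP supplied by transferring phosphate from creatine phosphate, have separate muscle, brain and mitochondrial forms. The muscle form was higher in 8 of 9 ESTs by 0.78 to 1.80, and the brain form (B-type) in 4 of 5 by 0.96 to 1.6. Among the 4, CA058765 (1.22 ± 0.33) passed the negative controls in 10 channels of 19 dpf and in no channel of 15 dpf. Creatine kinase B-type (CA058389) ran between 11.88 and 13.70 with a median of 12.95 at 19 dpf, against 10.38 to 12.25 with a median of 11.27 at 15 dpf. These ranges overlapped little, and the difference was 1.6 ± 0.21 (adjusted p = 1.48e-06). The sarcomeric mitochondrial form had 0 of 6 ESTs called, with differences between -0.56 and 0.47.

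**Figure D4:**
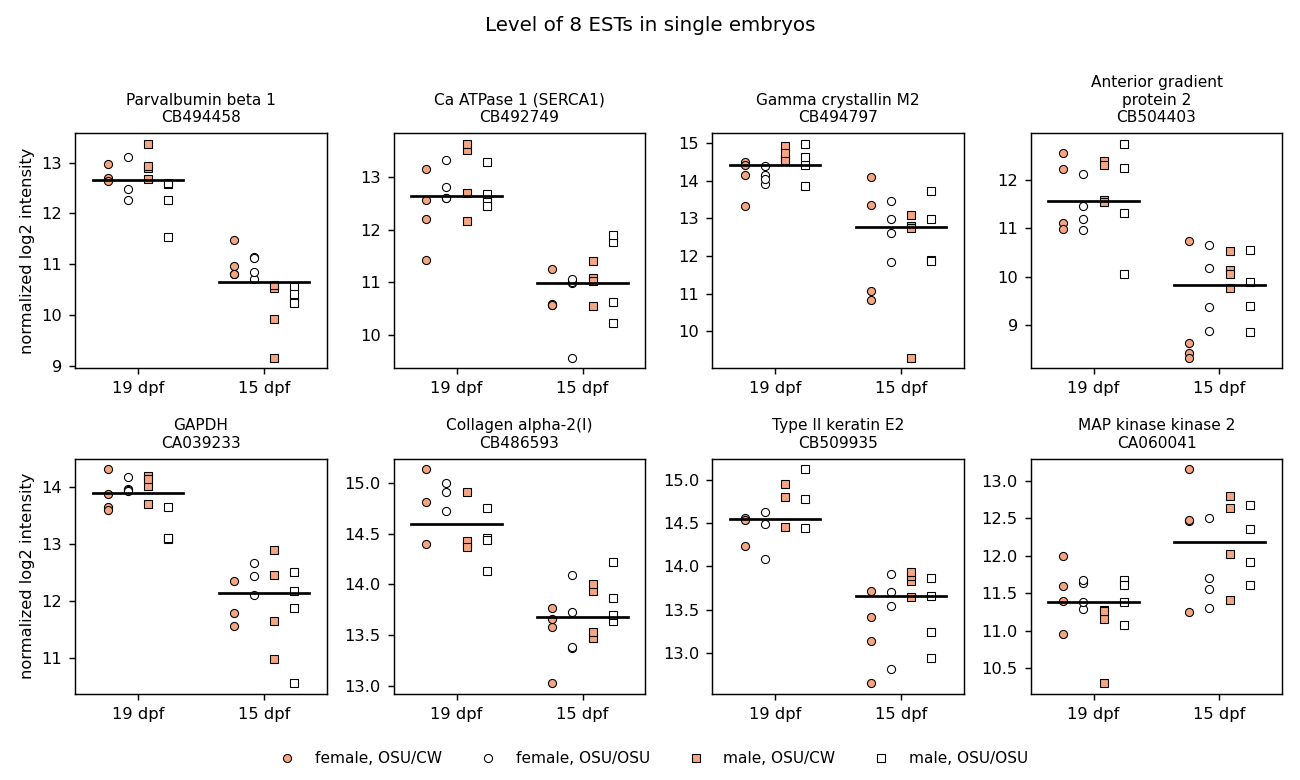
Normalized log2 intensity of 8 ESTs in each embryo of 19 dpf (left) and 15 dpf (right), with the median as a bar, circles for females, squares for males, filled symbols for OSU/CW and open symbols for OSU/OSU. The ages are separate for parvalbumin beta 1, GAPDH and type II keratin E2 and overlap for the other 5 ESTs; MAP kinase kinase 2 is the one with the lower median at 19 dpf.

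Lens crystallins, the packed proteins that give the lens its refractive power, had the highest share of calls of the 30 lists. Of 44 tested ESTs 24 (54.5%) were higher and 0 lower, 43 had a positive difference, and the median was 1.12. Gamma crystallins led, with 11 of 14 ESTs of gamma crystallin M2, 5 of 6 of M3 and 2 of 3 of B called higher. Of the ESTs described as beta crystallins, 5 of 6 of A4 and 1 of 5 of S were higher. For A1-2, A3, A3-1, B1, B2 and B3, 0 of 7 ESTs passed, with differences between 0.45 and 0.91. Gamma crystallin M2 (CB494797) ran between 13.32 and 14.98 with a median of 14.42 at 19 dpf, and between 9.30 and 14.09 with a median of 12.76 at 15 dpf. The 15 dpf embryos spread far more widely than those of 19 dpf and reached into their range, and the difference was 1.93 ± 0.36 (adjusted p = 0.00041). Gamma crystallin M3 (CB498577) ran between 13.25 and 14.46 with a median of 13.81 at 19 dpf and between 9.24 and 13.15 with a median of 12.21 at 15 dpf. Every embryo of 19 dpf lay above every embryo of 15 dpf (1.73 ± 0.35, adjusted p = 0.00204). The lowest 15 dpf value of both was that of the OSU/CW embryo on the male array 41, whose OSU/OSU partner had 11.86 for M2 and 12.16 for M3. Without that array 18 crystallin ESTs were higher, and without the 19 dpf female array 10 also 18. The count ran between 18 and 25 in the fits that each left out 1 array. Under loess normalization within arrays alone 10 were higher. The retina list, which holds proteins of the photoreceptors behind the lens, had 0 of 20 tested ESTs called (median 0.10, range -0.84 to 0.82). With 2.35% of all tested ESTs higher, a list of 20 can hold 0 calls without differing from them.

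Anterior gradient protein 2, a disulfide isomerase of the secretory pathway known from the cement gland of frogs and from mucus-producing cells of zebrafish, was on no list. It was higher in 6 of 7 ESTs, and the 7 differences were between 1.06 and 2.03. The EST with the largest difference (CB504403) ran between 10.05 and 12.76 with a median of 11.56 at 19 dpf, against 8.32 to 10.75 with a median of 9.82 at 15 dpf. Some embryos overlapped, and the difference of 2.03 ± 0.33 was 4.10-fold (adjusted p = 7.09e-05). That EST passed the negative controls in 14 of 16 channels of 19 dpf and 1 of 16 of 15 dpf. Its 15 dpf level thus lay mostly within the range of the controls, which leaves the size of the fold uncertain. The difference was 1.02 to 2.47 in the alternative fits. In 2 other ESTs of the protein (CB492865 and CK990918) the embryos of the ages did not overlap. Its medians at 15, 19 and 28 dpf were 9.82, 11.56 and 11.59 for CB504403, and 11.20, 12.95 and 13.18 for CB492865.

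Skin and connective tissue ESTs were also among those that rose. Collagens and extracellular matrix proteins were higher in 22 of 71 ESTs (31.0%, median 0.38) and lower in 0. Of the 22, 15 were chains of type I collagen, the main fibre of skin and bone, and 6 were SPARC, a collagen-binding matrix protein that also stood for all 6 calls of the bone and cartilage list (6 of 18 higher, median 0.45). Collagen alpha-2(I) (CB486593) ran between 14.13 and 15.13 with a median of 14.59 at 19 dpf (n = 14), against 13.03 to 14.22 with a median of 13.68 at 15 dpf (n = 16). One 15 dpf embryo reached into the 19 dpf range, and the difference was 0.97 ± 0.15 (adjusted p = 3.16e-05). Its 28 dpf median of 14.55 was close to that of 19 dpf. Without the 15 dpf male array 41 the counts were 14 for the matrix list and 2 for the bone list, and the bone list had 3 without the 19 dpf female array 40 and 2 with signal over background as a covariate.

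Keratins and other epidermal proteins were higher in 11 of 61 ESTs (18.0%, median 0.20) and lower in 0. The epidermal keratins of trout named E1, E2 and 13 led. Type II keratin E2 (CB509935) had levels of 14.09 to 15.12 with a median of 14.55 at 19 dpf (n = 12), and 12.65 to 13.93 with a median of 13.65 at 15 dpf (n = 16). The ages did not overlap (1.10 ± 0.17, 2.14-fold, adjusted p = 5.36e-05). Keratin 8, typical of simple epithelia, was higher in 1 of 9 ESTs.

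Glycolytic enzymes were higher in 14 of 87 ESTs (16.1%, median 0.31) and lower in 0. Of the 14, 11 were glyceraldehyde-3-phosphate dehydrogenase (GAPDH), and single ESTs of phosphoglycerate mutase 1, triosephosphate isomerase and aldolase A made up the rest. GAPDH (CA039233) ran between 13.09 and 14.31 with a median of 13.90 at 19 dpf (n = 16), and between 10.55 and 12.89 with a median of 12.14 at 15 dpf (n = 14). No embryo of 15 dpf reached the 19 dpf range, and the difference was 1.76 ± 0.19, or 3.39-fold (adjusted p = 3.89e-08). Other ESTs described as GAPDH had differences down to -0.03. The muscle type of 6-phosphofructokinase, which commits glucose to glycolysis, had 0 of 3 ESTs called and differences between -0.99 and -0.29. For phosphoglycerate mutase 1, 1 of 4 ESTs (CB493667, 1.72 ± 0.22) was called and the median of the 4 was 0.00. The count of 14 was 8 without the 19 dpf male array 11 and 9 without the 19 dpf female array 40.

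Plasma proteins of the liver were higher in 6 of 100 ESTs (6%, against 2.35% of all tested ESTs, median 0.12) and lower in 0. The 6 were serum albumin 1 (3 ESTs), serum albumin 2 (2 ESTs) and serotransferrin, the iron carrier of plasma. Serotransferrin (CB497986) ran between 12.31 and 14.30 with a median of 13.39 at 19 dpf (n = 14), against 11.11 to 12.91 with a median of 11.87 at 15 dpf (n = 12). A few embryos overlapped (1.42 ± 0.22, adjusted p = 5.36e-05). Of 4 serotransferrin ESTs it alone was called, and the median of the 4 was 0.42. Fatty acid-binding proteins, which carry fatty acids in the cytosol, were higher in 8 of 35 ESTs (22.9%, median 0.39), namely 4 of 6 of the brain form, 2 of 11 of the liver form and 2 of 6 of the intestinal form. Among the 8, a liver form EST (CB493070) and an intestinal form EST (CA769320) passed the negative controls in no channel of 15 dpf. At 19 dpf they passed in 8 and 5 of 16 channels, so the size of their differences is uncertain. The brain form (CB492854), a marker of radial glia, ran between 14.11 and 14.71 with a median of 14.35 at 19 dpf and between 13.06 and 14.07 with a median of 13.68 at 15 dpf, with no overlap (0.77 ± 0.16, n = 14 each, adjusted p = 0.00319). The heart form had 0 of 7 called. Among apolipoproteins and other lipid carriers 1 of 65 was higher (1.54%), an EST of apolipoprotein A-IV at 0.96.

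Hemoglobins carry oxygen in red cells. Of 60 ESTs 2 (3.33%, against 2.35% of all tested ESTs) were higher and 0 lower, and the median was 0.19. In the fits that each left out 1 array, 0 to 3 were higher. Both ESTs called in the main fit were the embryonic alpha subunit. Its EST CB492747 ran between 13.81 and 14.73 with a median of 14.31 at 19 dpf (n = 12), and between 11.24 and 13.92 with a median of 13.50 at 15 dpf (n = 14). The lowest level belonged to the 15 dpf array 41, and the difference of 0.90 ± 0.24 (adjusted p = 0.0342) was called in 8 of the 16 fits that each left out 1 array. Enzymes of heme synthesis and red cell membrane proteins had 0 of 27 called.

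Further lists held proteins common to most cells and proteins of some single cell types, and 0 to 4.29% of their ESTs were higher. The share over all tested ESTs was 2.35%, and a difference of any list from that share was not tested. Ribosomal proteins were higher in 1 of 179 (40S) and 1 of 220 (60S) ESTs, both with a median of 0.01. Proteins of the respiratory chain and ATP synthase were higher in 4 of 282 ESTs (1.42%, median 0.15). That count was 0 without the 15 dpf male array 41, 2 without the 15 dpf female array 14, the 19 dpf male array 27 or the 19 dpf female array 40, 7 without the 15 dpf female array 35 and 8 without the 15 dpf male array 31, and the median lay between -0.02 and 0.18 in the alternative fits. None of 101 ESTs of cell division and DNA replication was called, at a median of -0.13 that lay between -0.19 and -0.06 in the alternative fits. Translation factors (142 tested), tubulins (38), ribosome assembly (63), lysosomal proteases (33), yolk and egg proteins (33) and macrophage and granulocyte proteins (36) each had 0 called in either direction. Chaperones had 2 of 114 higher and antioxidant enzymes 1 of 86. Of chromatin proteins 3 of 70 were higher (4.29%), all from the high mobility group, with the trout protein HMG-T at 0.87 ± 0.19. Of neuronal proteins 1 of 48 was higher, an EST (CA048011) of stathmin, a regulator of microtubules in growing neurons, at 1.01 ± 0.22 (adjusted p = 0.00318). It was 1 of 4 stathmin ESTs tested, and the median of the 4 was 0.08. Cytoplasmic actin 1 had 0 of 12 ESTs called, differences between -0.12 and 0.64 and a median of 0.13.

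**Figure D5:**
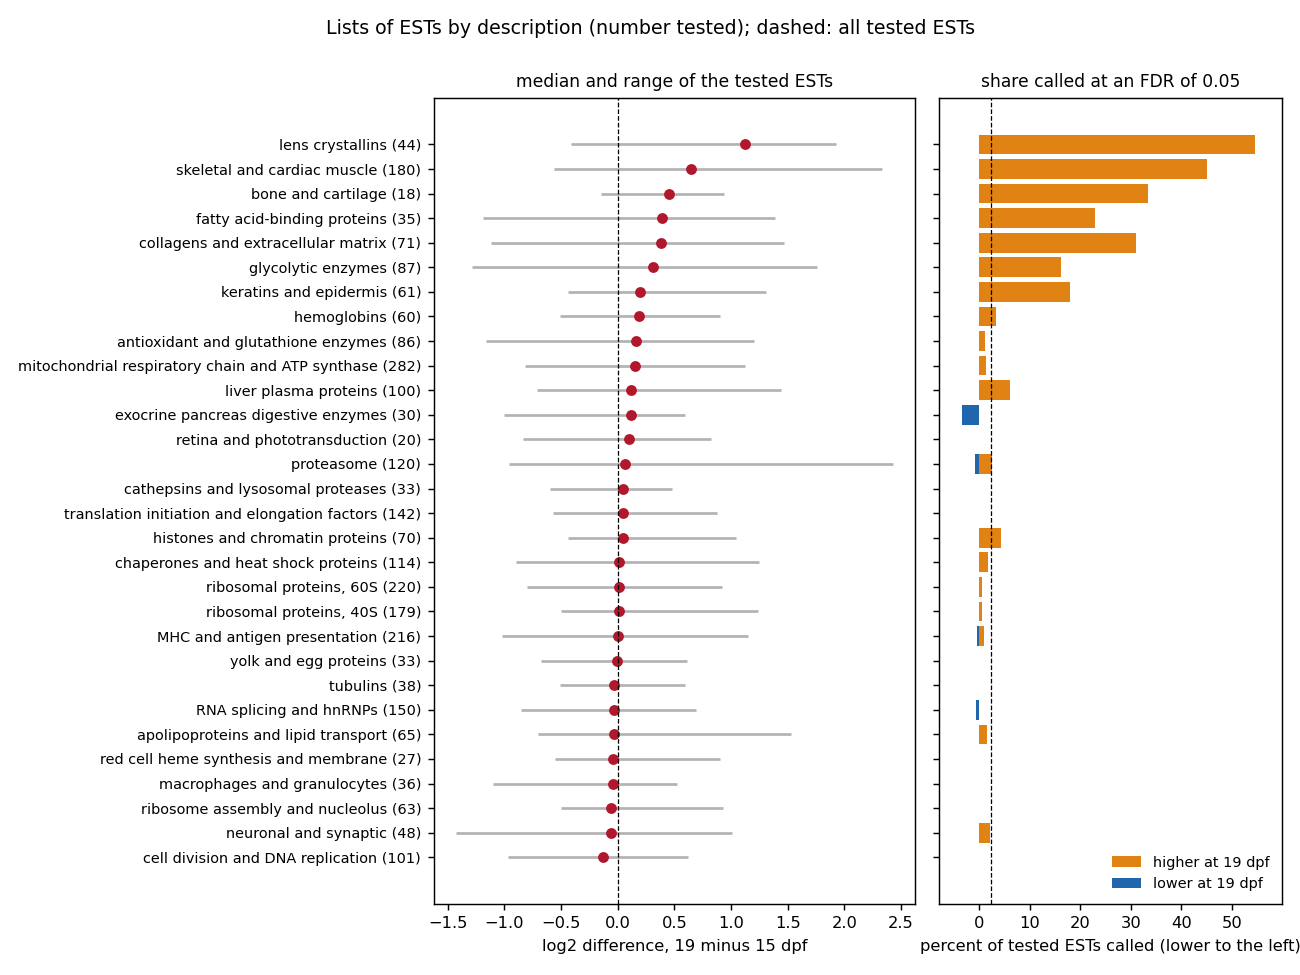
For each of the 30 lists, with the number of tested ESTs in brackets, the left panel shows the median (point) and range (line) of the log2 difference (19 minus 15 dpf), and the right panel the percent of ESTs called higher (orange) and lower (blue, to the left of 0). Lens crystallins (54.5%) and muscle (45.0%) stand highest, against 2.35% of all tested ESTs (dashed line).

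The largest difference of all belonged to an EST described as 26S proteasome non-ATPase regulatory subunit 12, a part of the lid of the proteasome. This EST (CB496882) ran between 9.67 and 12.88 with a median of 10.94 at 19 dpf (n = 12), against 7.67 to 9.78 with a median of 8.90 at 15 dpf (n = 16). It passed the negative controls in 12 of 16 channels of 19 dpf and 0 of 16 of 15 dpf. By the reckoning used for the parvalbumins, with 19 dpf values as measured, it was 2.18-fold higher (fitted difference 2.43 ± 0.28, adjusted p = 2.46e-07). In the alternative fits its log2 difference was 0.81 to 3.36. Its medians at 15, 19 and 28 dpf were 8.90, 10.94 and 14.70. The other ESTs of that description, CB494252 and CB515805, had differences of 0.46 ± 0.23 and 0.21 ± 0.24 (adjusted p = 0.342 and 0.737) and 28 dpf medians of 11.51 and 11.62. Of 120 proteasome ESTs in all, 3 were higher (2.50%) and 1 lower (0.833%), and the median was 0.06. Over all tested ESTs 2.35% were higher and 0.283% lower.

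Other named ESTs that rose were on no list. Mitochondrial MOSC domain-containing protein 1, a molybdenum enzyme of the outer membrane, rose in 1 of 3 ESTs (CB493828). That EST ran between 8.97 and 12.97 with a median of 11.78 at 19 dpf and between 8.95 and 10.80 with a median of 9.89 at 15 dpf, and the ranges overlapped (1.63 ± 0.33, adjusted p = 0.00204). Nucleoside diphosphate kinases, which move phosphate between nucleotides, were higher in 2 of 9 ESTs of the A form and 2 of 6 of the B form. ADP/ATP translocase 2, which exchanges nucleotides across the inner mitochondrial membrane, was higher in 2 of 15 ESTs. The list of antigen-presenting proteins of the major histocompatibility complex had 2 of 216 ESTs higher (0.926%) and 1 lower (0.463%). Over all tested ESTs the shares were 2.35% and 0.283%.

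ESTs that were lower at 19 dpf were fewer and closer to the threshold. The 33 had differences between -1.32 and -0.52. Of them 10 had no description, against 2982 of all 11653 tested ESTs. Only 4 of the 33 met the rule for naming the largest differences, since the others lacked a value on some array, had no description or a predicted one. The 4 were interferon regulatory factor 7 (CB500977, an activator of interferon genes), type II inositol-1,4,5-trisphosphate 5-phosphatase (CA054997), dual specificity mitogen-activated protein kinase kinase 2 (CA060041) and the splicing factor Prp31 (CA061519). Kinase kinase 2, which activates ERK, ran between 10.30 and 11.99 with a median of 11.38 at 19 dpf and between 11.25 and 13.15 with a median of 12.19 at 15 dpf. The ranges overlapped widely, and the difference was -0.76 ± 0.17 (adjusted p = 0.00585). An EST of the class II histocompatibility antigen alpha chain (CA064221), which presents peptides to T cells, ran between 9.52 and 12.95 with a median of 11.44 at 19 dpf, and between 11.92 and 13.34 with a median of 12.20 at 15 dpf (-1.02 ± 0.22, adjusted p = 0.00415). Interferon regulatory factor 7 was above the negative controls in 3 of 16 channels of 19 dpf and 5 of 16 of 15 dpf, and its difference was -1.08 ± 0.30 (adjusted p = 0.036). The 5-phosphatase had -0.87 ± 0.24 and Prp31 -0.73 ± 0.21 (adjusted p = 0.0359 and 0.0498). Of the 16 fits that each left out 1 array, kinase kinase 2 was called in 16, interferon regulatory factor 7 in 8, the 5-phosphatase in 7 and Prp31 in 3. Chymotrypsin B, a digestive protease, and the immunoproteasome subunit beta 8 were the lower members of their lists, at -1.0 ± 0.28 and -0.96 ± 0.27 (adjusted p = 0.0392 and 0.0439). For kinase kinase 2 and interferon regulatory factor 7, 1 of 2 ESTs was called, with the others at 0.18 and -0.29. The 5-phosphatase and chymotrypsin B had 1 of 3 called, with medians of -0.16 and -0.04. The class II alpha chain had 1 of 4 called (median -0.15) and subunit beta 8 had 1 of 5 (median -0.43).

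This lower set depended on single arrays. It held 95 ESTs without the 15 dpf female array 35, 70 without the 19 dpf male array 27 and 54 without the 19 dpf male array 19. Leaving out the 15 dpf female array 14, the 15 dpf male array 41, the 19 dpf male array 11, the 19 dpf male array 22 or the 19 dpf female array 40 gave 9, 10, 12, 15 and 18. The set of higher ESTs had 196 to 331 members in the same 16 fits, and 196 to 255 of them were among the 274. With the tested ESTs split by mean level into 4 bins of equal size, 112 of the brightest bin (3.84%) were higher and 2 (0.0687%) lower, and 44 of the dimmest bin (1.51%) were higher and 1 lower.

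The change with age was also compared between the sexes and between the genotypes. For sex by time 0 of 11653 ESTs passed an FDR of 0.05 in limma (558 at an unadjusted p under 0.05, smallest adjusted p 0.834), and for genotype by time 0 passed (772 at an unadjusted p under 0.05, smallest adjusted p 0.663). The smallest p for sex by time belonged to complement C3-1 (CA038719), a plasma protein of innate immunity, whose difference between ages was -0.48 in females and 1.79 in males. For genotype by time it was cytochrome c oxidase subunit 3 (CK991013), with 0.66 in OSU/CW and -0.47 in OSU/OSU embryos. Neither passed after adjustment (adjusted p = 0.834 and 0.663). In separate contrasts of the same fit, females gave 83 higher and 5 lower ESTs, males 97 and 12, OSU/CW embryos 264 and 69, and OSU/OSU embryos 129 and 2. A sex had 4 arrays at each age and a genotype had embryos on all 8, so counts of sexes and genotypes are not alike in precision. Differences between these counts were not tested.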

How the data were processed

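The deposited files held, per the file headers, the mean signal intensity and mean local background intensity of each spot, 1 file per channel and 1 embryo per channel, on a linear scale before background subtraction. No source used here names the scanner or its settings. The series table, which holds a quotient of both channels of an array and so no level per embryo, was not used.

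Intensities were background-corrected by normexp with an offset of 50, normalized by loess within arrays and by quantiles of the mean channel level between arrays, and taken as log2 per channel (limma 3.58.1, R 4.3.3, statmod 1.5.0). Spots with the poor flag (3) and 258 control spots were left out, and 39 repeated spots were averaged. An EST was tested if it lay above the 90th percentile of its channel's 1003 negative control spots in at least 16 of 48 channels and was measured on 2 or more arrays per sex and age. The 48 channels cover all ages of the series. An EST detected at 15 dpf alone had to pass in all 16 channels of that age. One high at the later ages could pass in none of them. The filter was thus easier to pass for ESTs that rise with age. Of the 274 higher ESTs, 19 were detected in no channel of 15 dpf. Without the detection filter 253 of 15853 ESTs were higher and 26 lower, of which 246 and 23 were among the 274 and 33. All 24 arrays entered 1 fit with 12 groups of sex, genotype and age, dye as a covariate and array as a random block (correlation 0.533). Labels name separate embryos, so p values measure the spread between embryos and arrays. Age differed only between arrays, but the fit counted its degrees of freedom from channels, so p values can be too small. With array means as samples 253 ESTs were higher and 21 lower, of which 228 and 13 were among the 274 and 33.

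Members and lists were chosen with earlier results of these data known. Named ESTs were the 12 largest differences in each direction with a description and values on all 16 arrays (1 per description), the 3 called members of each list with the smallest p in each direction, cytoplasmic actin 1, and the 3 smallest p values of each interaction. Others named, such as further ESTs of a description, were chosen after their values were seen. Alternatives covered background correction, normalization, filters, dye, the block, a mixed model (lmerTest 3.1.3), a quality covariate, the threshold and each array left out. The fit was tested on simulated data with known differences. It recovered 33 of 100 differences of 0.75 and 89 of 100 of 1.5 on the log2 scale, with 9 false calls. An EST that was not called may therefore still differ by such amounts. Whether these recovered and false counts hold for the measured arrays, whose quality differed between the ages, was not tested. No sequences were used here.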

Additional observations from a re-analysis of the deposited data

Results flagged for a closer look

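In 10 of the 122 groups of arrays examined for the named ESTs (8.2%), and in 0 of 60 for the mean levels of the lists, a single array lay far from the others, where chance marks about 1 in 20. Array means of both embryos are given on the log2 scale. The 15 dpf male array 41 was such an array in 5 of the 10. It was lowest for parvalbumin beta 1 (CA770081, 8.24, nearest array 9.08), embryonic hemoglobin alpha (CB492747, 11.86, nearest 13.40), collagen alpha-1(I) (CA061635, 13.66, nearest 14.04) and the MHC class I a region (CA051403, 9.80, nearest 10.87), and highest for the class II histocompatibility antigen gamma chain (CB497250, 11.90, nearest 11.21). The 15 dpf female array 14 was lowest for type II keratin E2 (CB509935, 12.73, nearest 13.44) and highest for proteasome subunit beta type 8 (CA062737, 13.14, nearest 11.73). At 19 dpf the male array 27 was lowest for MOSC domain-containing protein 1 (CB493828, 9.68, nearest 11.38) and highest for NADH dehydrogenase 1 beta subcomplex subunit 8 (CB493399, 13.33, nearest 12.10), and the male array 11 was lowest for type II inositol-1,4,5-trisphosphate 5-phosphatase (CA054997, 10.02, nearest 10.96).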

How the results depend on the processing

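All 274 higher ESTs kept their sign wherever they were tested, except 1 without background subtraction (273 of 274), and so did all 33 lower ESTs. Counts higher and lower at 19 dpf were 96 and 0 with loess within arrays only, and 158 and 14 with median-centred values. ESTs detected in all 32 channels gave 85 and 7, and those with signal at least 2 times background 135 and 12. The 16 arrays of both ages alone gave 174 and 13. A rule adapted from the study's methods gave 588 and 384 among 1585 ESTs kept by its first step. Its FDR of 0.2 was applied here to the difference between ages averaged over sexes and genotypes. The study applied it across all pairwise contrasts of its groups, so these counts are not those of its own rule. In the main fit, an FDR of 0.01 gave 148 and 5, and a difference of at least 2-fold 153 and 11. Contrasts within that fit gave 83 and 5 in females and 97 and 12 in males, with 4 arrays per age for each sex. They gave 264 and 69 in OSU/CW and 129 and 2 in OSU/OSU embryos, with 8 arrays per age. The lower count alone moved to 76 without background subtraction, 18 without the dye term, 21 with array means and 13 with the quality covariate. Of these, 22, 14, 13 and 12 were among the 33 of the main fit. The mixed model gave 24 lower ESTs, of which 10 were among the 33. Leaving out 1 array gave 196 to 331 higher and 9 to 95 lower. Without both the 15 dpf male array 41 and female array 35, an alternative chosen after seeing the data, 238 were higher and 36 lower. Of 61 called named ESTs, 23 passed in every alternative in which they were fitted (29 to 31 alternatives, with all 31 for 4 of the 23), and 40 of 54 higher and 2 of 7 lower ones passed in all 16 fits that left out an array. Both interactions had 0 calls in every alternative run. No paired analysis was possible because the replicate numbers are array numbers that no groups of different age share. Spots near the negative controls at 15 dpf have only a bound there, and dim spots limit what could be detected.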
